A study of Mus musculus with 12 samples.

Results

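The neural progenitor cell (NPC) clones of the mouse embryonic stem (ES) cell line F1-21.6 were compared with that ES line on the autosomes. These 5 libraries, 4 NPC clones and 1 ES library, are part of a series of 12, of which 10 have columns in the deposited expression table. They were chosen by their labels, and 14415 of the 14899 genes in the table are autosomal and were kept. The series derived clonal NPC lines from ES cells of a hybrid between the mouse strains 129Sv and Cast/EiJ, so that reads over strain differences show which parental allele a transcript came from. For each gene the table gives a count of allele-informative observations, the share of them from the 129 allele, and an FPKM value.

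The XX NPC group holds the clones named 129, C2, G4 and E1.2 (replicates 1 to 4), each a separate clonal line of F1-21.6 with 1 library. The clone called 129 shares its name with a strain, and it is written "clone 129" throughout. The XX ES group holds the 1 library of F1-21.6 cells, which were grown with serum and leukaemia inhibitory factor on mitomycin C-inactivated mouse embryonic fibroblast feeders, whose strain the labels do not give. All 5 carry the same XX hybrid genotype with no labelled mutation or drug. The 4 NPC clones of the XY line F1-23 (mC3, mE6, mB4 and mG3) and its 1 ES library, cultured in the same way, entered the statistical fit and are cited where they bear on an XX value. Since each ES group is 1 library, the spread in every test comes from the NPC clones, and the lone ES library was assumed to vary like them.

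ES cells hold pluripotency through a network of transcription factors that leukaemia inhibitory factor and bone morphogenetic protein signals help to maintain. On neural induction this network shuts down, and progenitors expanded with fibroblast and epidermal growth factors take on a radial glia-like identity, with the intermediate filament nestin and the brain lipid-binding protein Fabp7. Most autosomal genes are transcribed from both alleles. Some are transcribed from only 1, by imprinting, by a sequence difference between the strains, or by a choice that a cell makes and its clonal descendants keep. A clone shows such a choice as an allele imbalance that a mixed population would average out.

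The XX NPC clones had 66611144, 100631463, 102153897 and 119266777 counts in clones 129, C2, G4 and E1.2, and the XX ES library had 61375911. A gene was called testable for allele use with at least 20 counts, which left 12074, 12717, 12698 and 13040 autosomal genes in the clones and 12002 in the ES library. The median 129 share was 50% in each clone, to the nearest percent, and 49.8% in the ES library. Every gene in the table has at least 11 counts in some NPC clone of either line, so genes used by ES cells alone are thinly represented, and Pou5f1, Nanog, Zfp42 and Tdgf1 are not analysed here. In the names of the deposited columns, the XX NPC libraries carry one prefix and the ES and XY NPC libraries another, so within the XX line the prefix and the cell type cannot be told apart. The XY comparison lies within a single prefix.

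Defining markers went with the labels. The summed level of the ES markers Esrrb, Tcfcp2l1 and Klf5 was 1.82 to 3.30 CPM (counts scaled to library size with edgeR's TMM factors) in the XX NPC clones, against 1984 in XX ES. The 8 progenitor markers in the table summed to 3211 to 4965 CPM in the clones, against 422 in ES. Markers of other cell types were uneven across the clones. Astrocyte markers (Gfap, Aqp4, S100b) summed to 6.45 to 226 CPM in the clones, against 0.576 in ES, and neuron markers (Tubb3, Rbfox3, Snap25) to 1.23 to 16.3 CPM, against 5.16. Mbp, a myelin protein and the only one of the 4 oligodendrocyte markers checked that is an autosomal gene in the table, had 0.733 to 1.31 CPM in the clones and 15.8 in ES. Of the 9 fibroblast markers 7 were in the table, summing to 2.49 to 48.5 CPM in the clones and 53.4 in ES. Gata4, of endoderm, had 0.0201 to 6.01 CPM in the clones and 2.13 in ES. In bulk libraries, fewer cells of a type and less RNA per cell cannot be told apart. CPM values are not divided by gene length, so levels are compared between libraries and not between genes.

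About as many genes passed the test for a change in expression as did not, and not passing does not show that a gene was unchanged. Of 14367 autosomal genes tested, 7363 (51.2%) passed a Benjamini-Hochberg adjusted threshold of 0.05 in edgeR's quasi-likelihood test, 4052 (28.2%) higher and 3311 (23.0%) lower in the XX NPC clones than in XX ES. With a change of at least 2-fold as well, 3390 (23.6%) were higher and 2345 (16.3%) lower. The median log2 change over all tested genes was 0.21, or 0.027 in a limma fit of log2(FPKM + 1), and each list of genes given here is read against that value and those shares. In the XY line 6814 genes (47.4%) passed. The lines shared 5673 genes called in the same direction, and 13 were called in opposite directions. Among the XX calls, 619 genes had 0 counts in the ES library. For these a fold is given as a lower bound against a floor of 3 counts, which is 0.0443 CPM in that library.

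Among called single-symbol genes with at least 10 FPKM, the 10 largest rises were all of genes with 0 counts in the ES library. A fitted change from 0 counts has no firm upper size, so the ranking itself places such genes first. Olig2, a basic helix-loop-helix factor of ventral progenitors and of the oligodendrocyte lineage, had 326, 289, 304 and 238 CPM in clones 129, C2, G4 and E1.2, against 0 counts in XX ES. All 4 clones were far above the ES library, by at least 6527-fold on their mean of 289 ± 37.5 CPM (SD, n = 4; edgeR adjusted p = 4.90e-06). Fabp7 had 90.8, 123, 111 and 95.1 CPM in the clones, against 0 in ES (at least 2367-fold higher; edgeR adjusted p = 2.22e-05). Nfia, which drives the switch of progenitors towards glia, had 179, 141, 162 and 136 CPM in the clones, against 0 in ES (at least 3487-fold higher; edgeR adjusted p = 4.90e-06). These 3 genes were at a similar level in every clone.

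Other genes that the ES library lacked were much less even. Slc1a2, a glutamate transporter of astrocytes, had 57.4, 44.4, 72.4 and 1275 CPM in the 4 clones, the last being E1.2, against 0 in ES, and passed the test (edgeR adjusted p = 0.0199). Its call was lost in the XX libraries alone (adjusted p = 0.073) and with limma on FPKM (0.135). Chl1, an adhesion molecule of growing neurites, had 27.6, 55.1, 519 and 633 CPM in the clones, against 0 in ES (at least 6961-fold higher on the mean; edgeR adjusted p = 0.0139, and 0.085 with limma on FPKM). Clones G4 and E1.2 were thus about an order of magnitude above clones 129 and C2. Hepacam, a glial adhesion molecule, had 1.32 CPM in clone 129 and 40.5, 149 and 111 CPM in C2, G4 and E1.2, against 0 in ES. Its edgeR adjusted p was 0.045, and 0.060 to 0.063 with clone C2, G4 or E1.2 left out, 0.074 in the XX libraries alone and 0.123 with limma on FPKM. The mean of a group such as this describes no single clone.

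Taken by list, 20 of 28 neural progenitor genes rose, 1 fell and 7 did not pass, with a median log2 change of 4.88. Nes, encoding nestin, had 2392, 1697, 1772 and 638 CPM in the clones, against 21.8 in ES (log2 change 6.22 ± 0.87, SE; edgeR adjusted p = 7.62e-04). Pou3f2, a neural POU-domain factor, had 56.4, 44.8, 78.7 and 118 CPM in the clones, against 0 in ES (at least 1679.7-fold higher; edgeR adjusted p = 6.53e-05). Sox2, which serves both pluripotent cells and neural progenitors, was the list member that fell. It had 30.6, 25.5, 22.3 and 33.0 CPM in the clones, against 115 in ES (log2 change -2.04 ± 0.23; edgeR adjusted p = 2.75e-04). Members that did not pass included Sox1 and Hes5.

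Of 13 oligodendrocyte lineage genes 7 rose, 1 fell and 5 did not pass (median log2 change 4.90), with Olig2 in front. Bcan, the proteoglycan brevican of the brain matrix, had 3298, 3406, 2039 and 2646 CPM in the clones, against 1.08 in ES (log2 change 11.36 ± 0.56; edgeR adjusted p = 1.29e-05). Mbp was the member that fell (log2 change -3.81 ± 0.97; edgeR adjusted p = 0.0121). Cldn11 and Cnp, which are also used by myelinating cells, did not pass. Of 12 astrocyte genes 6 rose and 6 did not pass (median 3.32). Aqp4, the water channel of astrocyte endfeet, had 1.98, 8.81, 21.7 and 178 CPM in the clones, against 0 in ES (edgeR adjusted p = 0.0297, 0.106 in the XX libraries alone and 0.180 with limma on FPKM). Clone E1.2 was the highest for both Slc1a2 and Aqp4.

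The 13 neuron genes had a median log2 change of 0.20, with 2 higher, 2 lower and 9 not passing. Nefh, a heavy neurofilament subunit, fell, with 0.0296, 0.0602, 0.102 and 0.141 CPM in the clones and 7.80 in ES (log2 change -6.50 ± 0.81; edgeR adjusted p = 4.65e-04). Elavl3, a neuronal RNA-binding protein, had 0.0502 to 0.283 CPM in the clones and 1.99 in ES (edgeR adjusted p = 0.010).

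**Figure D1:**
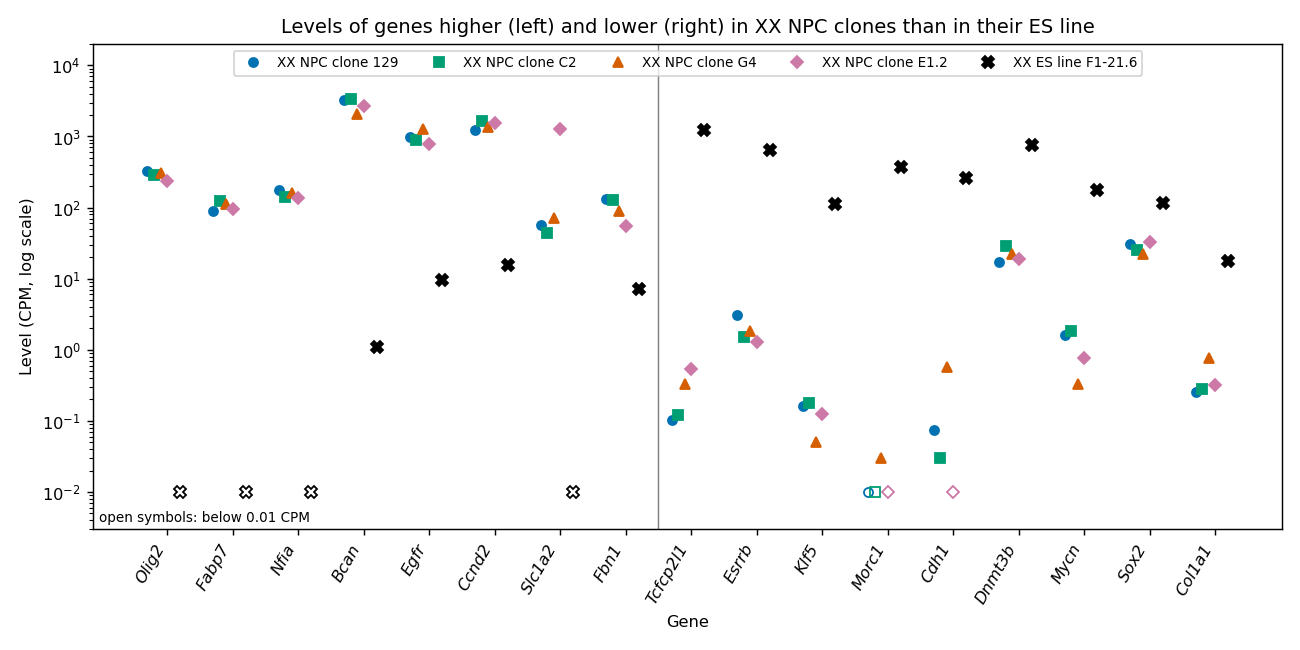
Levels in CPM, on a log axis, of 17 named genes in the 4 XX NPC clones and, to their right, the XX ES library, 1 symbol a library. Open symbols at the bottom stand for values below 0.01 CPM. The 8 genes on the left were higher and the 9 on the right lower in every clone than in ES.

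All 11 autosomal pluripotency genes in the table were lower in the clones (median log2 change -5.76). Tcfcp2l1, a factor downstream of leukaemia inhibitory factor, had 0.104, 0.120, 0.335 and 0.539 CPM in the clones, against 1229 in ES (log2 change -12.07 ± 0.70; edgeR adjusted p = 1.93e-05). Esrrb, an orphan nuclear receptor of the naive state, had 3.03, 1.51, 1.81 and 1.28 CPM in the clones, against 643 in ES (log2 change -8.40 ± 0.46; edgeR adjusted p = 1.60e-05). Klf5, a Krüppel-like factor of self-renewal, had 0.0508 to 0.181 CPM in the clones, against 112 in ES (log2 change -9.75 ± 0.61; edgeR adjusted p = 2.83e-05). The list was chosen for genes known to mark ES cells, so its direction is not an independent observation.

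Several of the largest falls were of genes outside that list. Igf2bp1, an RNA-binding protein of embryonic tissues, had 0 counts in all 4 clones and 572 CPM in ES, which is at least 72227-fold lower when 3 counts are allowed over the clones together (edgeR adjusted p = 0.0195). In the XY line its change did not pass (edgeR adjusted p = 0.094). A pass in the XX line alone does not show that the lines differed. Morc1, known in mouse for germline transposon silencing, had 0, 0, 0.0305 and 0.00884 CPM in the clones and 371 in ES (log2 change -14.92 ± 1.04; edgeR adjusted p = 4.02e-05). Trh, the thyrotropin-releasing hormone precursor, had 0, 0.0401, 0 and 0.133 CPM in the clones and 384 in ES (log2 change -12.90 ± 1.19; edgeR adjusted p = 1.22e-04). The same set, ranked by size of change, also held Nptx2, F2rl1, Apobec3, Cmklr1 and Rhbdf2, which had 0 to 0.254 CPM in the clones and 36.5 to 115 in ES.

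Cadherins and their partners moved in both directions. Of 17 cadherin and epithelial adhesion genes 7 rose, 5 fell and 5 did not pass (median log2 change 2.57). Cdh1, the epithelial cadherin of ES cell colonies, had 0.0740, 0.0301, 0.569 and 0 CPM in the clones, against 258 in ES (log2 change -10.56 ± 1.32; edgeR adjusted p = 4.77e-04). Epcam, an epithelial adhesion molecule, had 0 to 0.401 CPM in the clones and 124 in ES (log2 change -9.62 ± 1.15; edgeR adjusted p = 3.92e-04). Cdh6, a type II cadherin, had 83.2, 197, 222 and 99.6 CPM in the clones, against 0 in ES (at least 3394-fold higher; edgeR adjusted p = 1.95e-04). Cdh13, a cadherin anchored to the membrane by a lipid, had 51.6, 140.2, 211 and 348 CPM in the clones and 0.872 in ES (log2 change 7.75 ± 1.38; edgeR adjusted p = 0.00238).

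Signalling genes changed in both directions. Among 26 genes of fibroblast and epidermal growth factor signalling, 17 rose, 1 fell and 8 did not pass (median log2 change 1.76). Egfr, the epidermal growth factor receptor, had 973, 906, 1273 and 792 CPM in the clones, against 9.62 in ES (log2 change 6.68 ± 0.41; edgeR adjusted p = 2.46e-05). Erbb3, a receptor of the same family that binds neuregulins, was the member that fell, with 0.0592 to 0.234 CPM in the clones and 29.7 in ES (log2 change -7.61 ± 1.04; edgeR adjusted p = 7.06e-04). Of 20 Notch genes 9 rose, 4 fell and 7 did not pass (median 1.07). The receptor Notch1 had 398, 401, 513 and 392 CPM in the clones and 61.4 in ES (log2 change 2.79 ± 0.32; edgeR adjusted p = 3.30e-04). Rbpj, the DNA-binding partner of the cleaved receptor, had 54.0, 49.4, 51.7 and 43.6 CPM in the clones and 247 in ES (log2 change -2.31 ± 0.16; edgeR adjusted p = 3.33e-05). The receptor was thus higher and its DNA-binding partner lower in all 4 clones.

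Of 15 sonic hedgehog genes 6 rose, 4 fell and 5 did not pass (median log2 change 1.64). The co-receptor Gas1 had 84.9, 50.3, 36.6 and 57.7 CPM in the clones, against 0.961 in ES (log2 change 5.90 ± 0.78; edgeR adjusted p = 6.21e-04). The co-receptors Cdon and Boc also rose. Gli1, a transcriptional target and effector of the pathway, had 0.599 to 1.38 CPM in the clones and 28.2 in ES (log2 change -5.05 ± 0.53; edgeR adjusted p = 2.12e-04). Among 19 genes of leukaemia inhibitory factor and bone morphogenetic protein signalling 8 rose, 5 fell and 6 did not pass (median -0.25). Socs3, a feedback inhibitor that STAT3 induces, had 4.79, 3.69, 4.55 and 3.14 CPM in the clones, against 137 in ES (log2 change -5.08 ± 0.31; edgeR adjusted p = 2.32e-05). The receptors Bmpr1b and Bmpr2 rose, with log2 changes of 5.11 ± 0.99 and 3.14 ± 0.33 (edgeR adjusted p = 0.00355 and 2.12e-04).

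Cell cycle and chromatin genes also changed in both directions. Of 22 cyclins and cyclin-dependent kinase inhibitors and their partners 10 rose, 5 fell and 7 did not pass (median log2 change 0.67). Ccnd2, cyclin D2, had 1225, 1671, 1341 and 1534 CPM in the clones, against 15.5 in ES (log2 change 6.54 ± 0.38; edgeR adjusted p = 2.09e-05). Ccnd3, cyclin D3, had 9.15 to 13.1 CPM in the clones and 99.6 in ES (log2 change -3.20 ± 0.24; edgeR adjusted p = 5.55e-05). Mycn, a Myc-family factor, had 0.335 to 1.85 CPM in the clones and 178 in ES (log2 change -7.29 ± 0.72; edgeR adjusted p = 1.59e-04). Of 16 genes of DNA methylation and demethylation 6 rose, 8 fell and 2 did not pass (median -0.54). Dnmt3b, a de novo DNA methyltransferase, had 17.4, 28.3, 22.3 and 18.9 CPM in the clones, against 750.3 in ES (log2 change -5.11 ± 0.32; edgeR adjusted p = 2.83e-05). Tet3, which oxidises methylcytosine, had 341 to 429 CPM in the clones and 83.7 in ES (log2 change 2.25 ± 0.23; edgeR adjusted p = 1.94e-04).

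Genes of the feeder cell type were measured in the ES library too. Of 22 fibroblast genes 1 rose, 5 fell and 16 did not pass (median log2 change -1.35), and their summed level was 729 to 1968 CPM in the clones and 3884 in ES. Col1a1, a chain of fibrillar collagen, had 0.252, 0.281, 0.762 and 0.318 CPM in the clones and 17.6 in ES (log2 change -5.44 ± 1.09; edgeR adjusted p = 0.00418). In the ES library 17 of the 19 fibroblast genes with at least 20 counts had a 129 share above 50%, as had 49.2% of all 12002 testable genes there. The median share of the fibroblast genes was 74.6%, but 53.2% of their counts pooled were 129. The 6 that were monoallelic in ES were all 129, where 60.9% of all monoallelic genes were. The part of feeder RNA in the ES values was not tested. Of 11 endoderm genes 1 rose and 2 fell, and of 8 mesoderm genes none rose and 1, Eomes, fell (log2 change -7.00 ± 1.10; edgeR adjusted p = 0.00134). Of 19 housekeeping genes 3 rose, 7 fell and 9 did not pass (median -0.30). Gapdh was among those that rose, but had a log2 change of -0.55 in the limma fit of FPKM, where it did not pass (adjusted p = 0.102).

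Few genes were called for a difference between the lines, in a design with 1 ES library per line, and few calls do not show that the changes were alike. Across 11746 genes with at least 20 counts in both ES libraries the 2 log2 changes had a Pearson r of 0.889, a description over genes that share 1 fit and are not independent. The difference between the XX and the XY change passed for 12 of 14367 genes (0.0835%) in edgeR's test of the interaction, and 1506 (10.5%) had an unadjusted p under 0.05. DESeq2 called 503. Nfia was among the 12, with 0 counts in the XX ES library and 0.367 CPM, from 26 counts, in the XY ES library (edgeR adjusted p = 0.0215). With the XX ES value at the floor of 3 counts, its change was larger in the XX line by at least 3.16 on the log2 scale. Nav3, a microtubule-associated protein, had 385, 586, 407 and 466 CPM in the XX clones and 0.118 CPM in XX ES, and 2.41 CPM in XY ES (interaction 4.67; edgeR adjusted p = 0.0341). Fzd2, a Wnt receptor, had 9.01, 9.17, 9.19 and 6.65 CPM in the XX clones and 0.163 CPM in XX ES, and 3.30 CPM in XY ES (interaction 4.64; edgeR adjusted p = 0.0317). In all 3 genes the lines differed in the ES library, which is 1 sample each. None of the 3 passed without clone G4, where the edgeR adjusted p was 0.050 for Nfia, 0.063 for Nav3 and 0.063 for Fzd2. Fzd2 was also lost without clone C2 (0.073) and Nav3 without clone E1.2 (0.052).

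Allele use was read next. A gene was called monoallelic when its major allele held at least 85% of at least 20 counts, and biallelic when it held at most 70%. In clones 129, C2, G4 and E1.2, 8.37%, 6.72%, 6.99% and 6.69% of testable autosomal genes were monoallelic, against 5.87% in XX ES (95% Clopper-Pearson interval 5.45% to 6.30%). All 4 clones were above the ES library, and clone 129 was the highest. The clone mean of 7.20% ± 0.796 (SD, n = 4) exceeded the ES value by 1.33 percentage points. An exact 2-sided permutation test gave p = 0.4, and with 5 samples it cannot go below 0.2. Over the 10721 genes with at least 20 counts in all 5 libraries the difference was -0.142 points. With the clones' counts thinned to the ES total it was 0.595 points. Among genes with at least 500 counts, 3.29%, 2.35%, 2.73% and 2.68% were monoallelic in the clones, against 1.32% in ES, a difference of 1.44 points, so the sign of the difference depended on which genes were compared. The parental make-up of these calls also differed. The 129 allele was the major one in 48.2%, 46.8%, 51.7% and 48.1% of monoallelic genes in the clones, against 60.9% in ES (interval 57.2% to 64.6%).

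Behind these similar totals, many genes changed class. Of 10035 genes that were biallelic in the ES library and testable in a clone, 872 (8.69%) became monoallelic in at least 1 clone. Of these 584 did so in 1 clone, 193 in 2, 74 in 3 and 21 in all 4, and the last is 0.222% of the 9451 genes testable in all 4. The 129 allele alone was kept for 379 genes and the Cast allele alone for 436, and 57 genes used 129 in some clones and Cast in others. Another clone still used both alleles in 613 of the 872. By clone, 4.47%, 2.70%, 3.23% and 2.69% of ES-biallelic genes gained imbalance in clones 129, C2, G4 and E1.2. In the XY line the range was 2.56% to 3.23%. Depth was lower for the genes that gained: their median ES count was 692.5, against 2169 for all genes biallelic in ES.

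In the other direction, 629 genes were monoallelic in the ES library and testable in a clone, and 414 of them (65.8%) were biallelic in at least 1 clone. Of the 414, 139 were biallelic in all 4 clones. In ES 255 of the 414 had been 129 and 159 Cast, and 60.9% of all genes monoallelic there were 129. Fibroblast genes, which leaned to 129 in the ES library, were among the lost genes: 5 of the 6 that were monoallelic for 129 there (Col1a1, Postn, Tagln, Lox and Thbs2) lost imbalance. The part of feeder RNA in the lost class, matrix genes included, was not tested. By clone, 46.9%, 51.1%, 53.1% and 52.0% of testable ES-monoallelic genes had both alleles in use, and 27.2%, 23.6%, 24% and 23.4% kept the same single allele. Among these, 59 genes were monoallelic for the ES allele in all 4 clones, 30 for 129 and 29 for Cast. The ES-monoallelic genes had few counts, with a median of 80.5 in the ES library, and the count that lost imbalance fell to 70 genes when at least 200 counts were asked for in all 5 libraries. In the XY line 41.8% to 43.5% of ES-monoallelic genes became biallelic by clone. The lines shared 283 gained genes, which is 32.5% of the XX and 38.7% of the XY gained genes. Only 700 of the 872 XX gained genes were biallelic in the XY ES library, which a gain in that line requires. The lines shared 79 lost genes, which is 19.1% of the XX and 26.3% of the XY lost genes. A loss in the XY line likewise requires a gene to be monoallelic in XY ES, and the genes that met this were not counted. Neither overlap was tested against that of all genes.

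**Figure D2:**
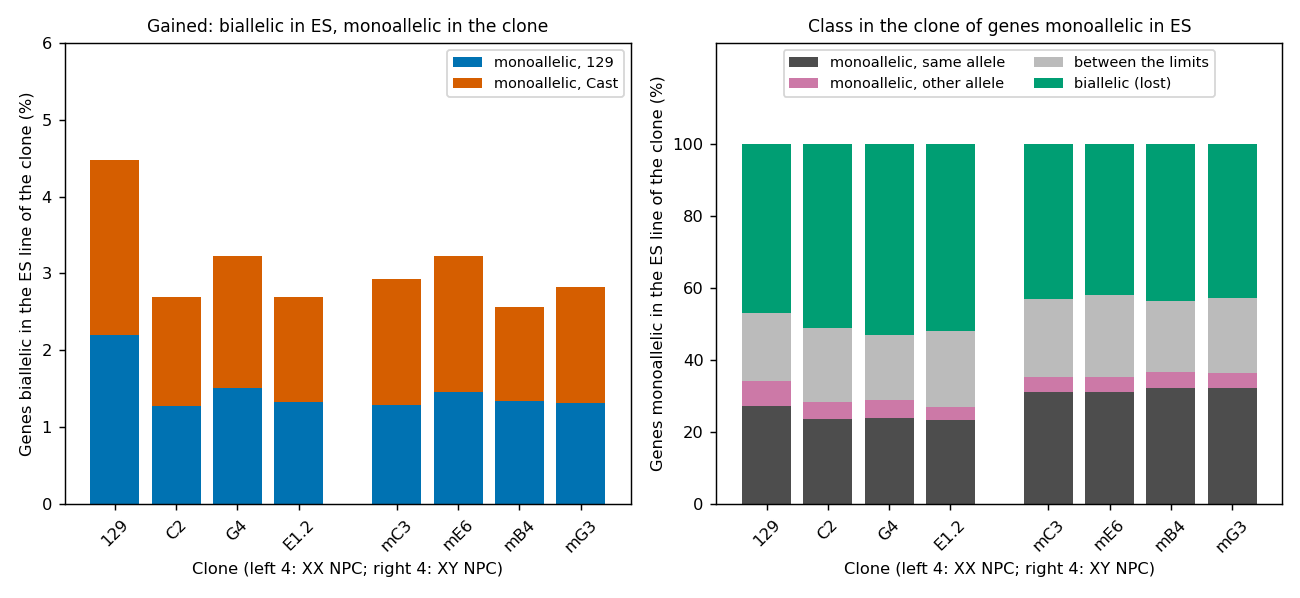
Bars give, for each clone, the percent of testable genes biallelic in its ES line that became monoallelic for 129 or Cast (left panel) and the class in the clone of genes monoallelic in its ES line (right panel), with XX NPC clones left of XY NPC clones. Gains were 2.69% to 4.47% and losses 46.9% to 53.1% in the XX clones.

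Monoallelic genes were commoner among genes whose level had changed. Of genes at least 2-fold higher in the clones, 10.6% ± 1.16 of those testable in a clone were monoallelic there (SD, n = 4). The ES value was 9.69% of those testable in the ES library. These sets differ, as 3975 to 4401 of the genes were testable in a clone and 2952 in ES. Each percent that follows also counts only genes testable in its own library. Of genes at least 2-fold lower, 10.3% ± 0.834 were monoallelic in a clone, against 8.06% in ES. Of genes within 2-fold, 3.58% ± 0.689 were monoallelic in a clone, against 2.86% in ES. Among genes with at least 500 counts the gap to ES in percentage points was wider for the higher genes and narrower for the lower genes. There 4.73% ± 0.480 of the higher genes were monoallelic in a clone, against 1.68% in ES, 3.39% ± 0.538 of the lower genes, against 2.73%, and 1.48% ± 0.409 of those within 2-fold, against 0.592%. Genes biallelic in ES made up 30.5% to 42.3% of a clone's monoallelic genes, and genes with under 20 ES counts made up another 29.7% to 38.1%.

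Mt1 was among the most deeply counted genes that became monoallelic in all 4 clones. It encodes metallothionein 1, a metal-binding protein, and lies on chromosome 8 at 96702989 to 96704227 in mm9, the build of the deposited coordinates. Its 129 share was 100% of 3770 counts in clone 129 and 99.0%, 99.99% and 98.6% in the other clones, against 40.3% of 7899 counts in XX ES, and the shift passed an allele-by-group edgeR test (adjusted p = 0.0310). The XY clones had 99.2% to 99.7%, against 34.7% in XY ES. All 8 clones of both lines thus used almost only the 129 allele, and both ES libraries used both alleles. Its summed level was lower in the XX clones, with a log2 change of -0.88 ± 0.29 (edgeR adjusted p = 0.035). In the XX libraries alone the shift did not pass (adjusted p = 0.143).

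Abca8b and Car5a moved to opposite alleles. Abca8b, a lipid transporter of the ABC family, lies on chromosome 11 at 109793434 to 109857223. Its 129 share was 99.7%, 99.9%, 99.7% and 86.1% in the clones, against 53.9% in ES, while its level rose (log2 change 5.07 ± 0.92; edgeR adjusted p = 0.0026). Car5a, a mitochondrial carbonic anhydrase, lies on chromosome 8 at 124439347 to 124468812. Its 129 share was 9.06%, 6.01%, 5.81% and 5.41% in the clones, against 50.7% in ES (shift -3.90 ± 0.64 in log2 odds; edgeR adjusted p = 0.00677). In the XY line its 129 share was 4.47% to 12.6% in the clones and 27.2% in ES. The shift of Abca8b did not pass (edgeR adjusted p = 0.203).

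The start regions of these 3 genes are given because their alleles diverged in every clone, and they differ widely in CG content. Each window runs from 250 bases before to 50 after the annotated start, from RefSeq on GRCm38.p6, in the gene's own direction, with CG dinucleotides in capitals. These coordinates are of another build than those of the deposited table.
Mt1, chr8:94178839-94179138, plus strand: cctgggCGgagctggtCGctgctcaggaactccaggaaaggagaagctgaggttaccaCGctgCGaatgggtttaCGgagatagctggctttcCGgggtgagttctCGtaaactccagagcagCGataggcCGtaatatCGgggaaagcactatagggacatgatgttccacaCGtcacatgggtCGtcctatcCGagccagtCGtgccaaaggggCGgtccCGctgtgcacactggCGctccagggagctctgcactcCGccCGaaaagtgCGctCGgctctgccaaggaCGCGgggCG
Abca8b, chr11:109995796-109996095, minus strand: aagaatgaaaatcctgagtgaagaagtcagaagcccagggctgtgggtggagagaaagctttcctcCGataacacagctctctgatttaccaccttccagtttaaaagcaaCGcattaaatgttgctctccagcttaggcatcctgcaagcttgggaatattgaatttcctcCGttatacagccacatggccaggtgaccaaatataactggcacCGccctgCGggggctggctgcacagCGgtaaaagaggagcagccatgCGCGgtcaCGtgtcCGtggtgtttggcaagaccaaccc
Car5a, chr8:121944863-121945162, minus strand: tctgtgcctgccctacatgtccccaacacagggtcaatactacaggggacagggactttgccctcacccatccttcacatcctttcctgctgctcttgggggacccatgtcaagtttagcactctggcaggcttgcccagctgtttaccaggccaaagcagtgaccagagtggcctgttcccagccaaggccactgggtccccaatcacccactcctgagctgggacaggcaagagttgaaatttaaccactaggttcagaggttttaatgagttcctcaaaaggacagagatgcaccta
The Mt1 window holds 24 CG dinucleotides, and 20.5% of 31396 autosomal windows of this length hold as many or more. The Abca8b window holds 10, and 44.0% of windows hold as many or more, and the Car5a window holds 0, as do 5.25% of windows. The median window holds 7. The reference sequence is not that of the 129 or Cast strain, and no strain difference was read from it.

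The other genes of high depth that gained imbalance in all or most clones also leaned to 1 allele. Aldoc, a brain isoform of aldolase, had 129 shares of 98.5%, 93.9%, 97.1% and 80.7% in the clones, against 46.0% in ES. Tmem40, a transmembrane protein, had 98.0%, 100.0%, 98.7% and 87.1% in the clones, against 64.1% in ES. Pmm2, a mannose phosphate enzyme, had 98.9%, 99.98%, 99.9% and 95.9% in the clones, against 69.5% in ES. Tmem186 overlaps Pmm2 and shares its counts, so the pair cannot be read apart. In the XY clones Pmm2 stayed at 54.7% to 61.7%, against 63.4% in XY ES. Zfp454 and Zfp52, zinc finger genes, went to Cast. Zfp454 had 0.609%, 1.54%, 4.17% and 11.7% in the clones, against 52.3% in ES. Zfp52 had 8.42%, 14.1%, 5.92% and 10.5%, against 39.6%. Fpgt, which acts in fucose salvage, had 99.8%, 100.0% and 96.9% in clones 129, C2 and G4, and E1.2 kept both alleles at 51.9%, against 56.8% in ES.

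Some of the deepest genes changed in a single clone. In clone 129, Ldha, a lactate dehydrogenase subunit, had a 129 share of 0.0270% of 18528 counts, with 46.8%, 46.6% and 44.8% in the other clones, against 48.2% in ES. Its level there was 274 CPM, with 446, 389 and 400.2 CPM in the other clones, against 1907 in ES. The XY clone mC3 had 1.80%. In clone G4, Mbd1, which binds methylated DNA, had 0.123% of 23531 counts, with 42.7% to 45.8% in the other clones, against 43.4% in ES, and the XY clone mB4 had 0.0475%. In clone E1.2, Zfp445, a zinc finger protein with a role in imprint maintenance, had 88.6%, with 52.0% to 57.4% in the other clones, against 41.8% in ES. Slc36a4, an amino acid transporter, had 11.3% in E1.2, with 44.1% to 46.6% elsewhere, against 43.5% in ES. In clone C2 the same rule named Akap12, Pvt1 and Ltbp1, at 87.3%, 11% and 10.1%.

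**Figure D3:**
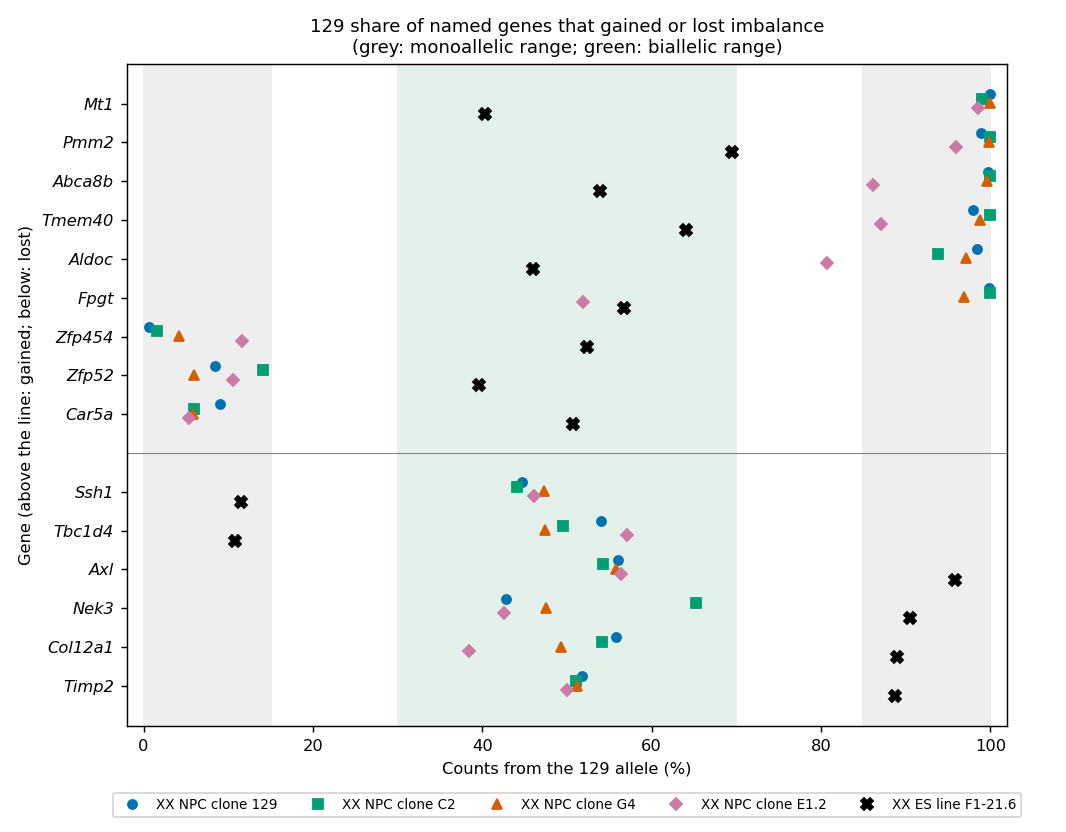
Percent of counts from the 129 allele for 9 genes that gained and 6 that lost allele imbalance, 1 symbol per XX NPC clone and a cross for the XX ES library. Shaded bands mark the monoallelic and biallelic ranges. E1.2 lies apart from the other clones for Fpgt, at 51.9%.

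Genes that lost imbalance in all 4 clones have both alleles in use in each of them by definition, and are given by the members with the most ES counts. Ssh1, a phosphatase that activates cofilin (chromosome 5, 114386945 to 114443816, mm9), had 129 shares of 44.7%, 44.1%, 47.3% and 46.1% in the clones, against 11.5% in ES (shift 2.69 ± 0.10 in log2 odds; edgeR adjusted p = 7.72e-06). XY ES had 14.5%. Timp2, an inhibitor of matrix metalloproteinases (chromosome 11, 118162375 to 118216931), had 51.7%, 51.0%, 51.2% and 50% in the clones, against 88.7% in ES (shift -2.91 ± 0.08; edgeR adjusted p = 2.09e-06). Axl, a receptor tyrosine kinase of the TAM family (chromosome 7, 26541519 to 26574095), had 56.0%, 54.2%, 55.8% and 56.4% in the clones, against 95.9% in ES (shift -4.21 ± 0.19; edgeR adjusted p = 2.30e-05). For Axl the XY ES library had 72.7%, and the lines' shifts differed (edgeR interaction adjusted p = 9.7e-04). Nek3, Col12a1, Tbc1d4 and Dpysl3 were also among the genes with the most ES counts in this class, with 33.8% to 65.2% 129 in the clones and 90.5%, 88.9%, 10.8% and 89.5% in ES.

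Fitted over all 10721 genes with at least 20 counts in the 5 libraries, 1640 (15.3%) shifted in 129 share, 800 (7.46%) towards 129 and 840 (7.84%) towards Cast. With the XX libraries alone 745 were called. In the XY line 1190 of 10446 genes (11.4%) shifted, and the shift differed between the lines for 198 genes (1.9%). Igfbp3, a carrier of insulin-like growth factors, had 68.3%, 70.0%, 70.8% and 70.9% in the clones, against 13.7% of 525 counts in ES (shift 3.87 ± 0.12; edgeR adjusted p = 2.40e-06). Ehd2, a membrane-remodelling ATPase of caveolae, had 53.9%, 56.4%, 53.1% and 53.9% in the clones, and all of its 422 ES counts were 129 (edgeR adjusted p = 5.09e-07). Wnt5a, a Wnt ligand, had 61.0% to 66.4% in the clones, and all of its 311 ES counts were 129 (edgeR adjusted p = 2.40e-06). Nptx1 and Map6d1 also shifted towards 129, with 7.01% and 6.72% in ES, and Kirrel2 towards Cast, with 97.7% in ES.

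Some members of the lists changed allele use, and no difference between lists was tested. Over all genes biallelic in ES the share that gained imbalance in a clone was 8.69%. Among the 10 pluripotency genes biallelic in ES, 4 became monoallelic in a clone (Esrrb, Tcfcp2l1, Lin28b and Trim71), on far fewer counts than in ES. Esrrb had a 129 share of 86.8% of 205 counts in clone 129, against 48.2% of 43541 counts in ES. Of the 5 astrocyte genes biallelic in ES 3 gained imbalance (Gja1, Clu and Aldoc), and Fgfr3 and Sparcl1 were among those that lost it. Gja1, the connexin 43 gap junction protein, was 129 alone in clone C2, at 100.0% of 6782 counts, and at 48.8% to 53.4% in the other 3 clones, against 61.8% in ES. Fgfr3, a fibroblast growth factor receptor, had 41.9% to 46.3% in the clones and 12.1% in ES. Of 18 housekeeping genes biallelic in ES none gained imbalance, which was not tested against that share. These genes were picked after their values were seen, as the members of short lists.

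A run of neighbouring genes in clone G4 changed allele together. At the end of chromosome 7, from Kcnq1 to Tpcn2 (150293159 to 152469864 in mm9), 17 genes had at least 20 counts in that clone, and 16 of them were monoallelic for Cast. Kcnq1 and its antisense transcript Kcnq1ot1 had the same 7400 counts there and cannot be read as separate genes, and counted as 1 they leave 15 of 16. The run ends with the last autosomal gene that the table holds on this chromosome. The 129 share had a median of 4.96% over the 17 genes and a range of 1.69% to 85.0%, the exception being Tnfrsf22. All 12 genes of the run that were biallelic in ES, or 11 with that pair as 1, gained imbalance in G4. In the 3 other clones, 12 of the 17 genes were biallelic throughout. Kcnq1, a potassium channel gene, was not: it had 4.96% in G4, with 61.2%, 68.6% and 11.6% in clones 129, C2 and E1.2, against 54.2% in ES. Ccnd1, cyclin D1, had 8.40% in G4, with 48.5%, 48.9% and 47.2% in the other clones, against 41.9% in ES. Cttn, the actin-binding protein cortactin, had 5.84%, with 55.6%, 55.6% and 55.8% in the other clones, against 51.1% in ES. Dhcr7, of cholesterol synthesis, had 6.04%, with 50.8%, 51.1% and 51.7%, against 46.4%.

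The run was also lower in total. Over the 17 genes the level in G4 had a median log2 ratio of -1.15 to the mean of the 3 other clones, and 16 of 17 were lower, whereas the median over all autosomal genes with at least 20 counts in G4 was -0.0166. The Cast level alone had a median log2 ratio of -0.14 to the other clones. Ccnd1 had 222 CPM in G4, with 666, 581 and 681 CPM in clones 129, C2 and E1.2, against 44.0 in ES. Cttn had 174 CPM in G4, with 346, 383 and 318 CPM in the other clones, against 303 in ES. Another run of 5 neighbouring genes was monoallelic for Cast, Hoxa6 to Hoxa10 in clone E1.2, and none of its genes was biallelic in ES. Without the distal chromosome 7 genes, 859 of the 872 gained genes remained.

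**Figure D4:**
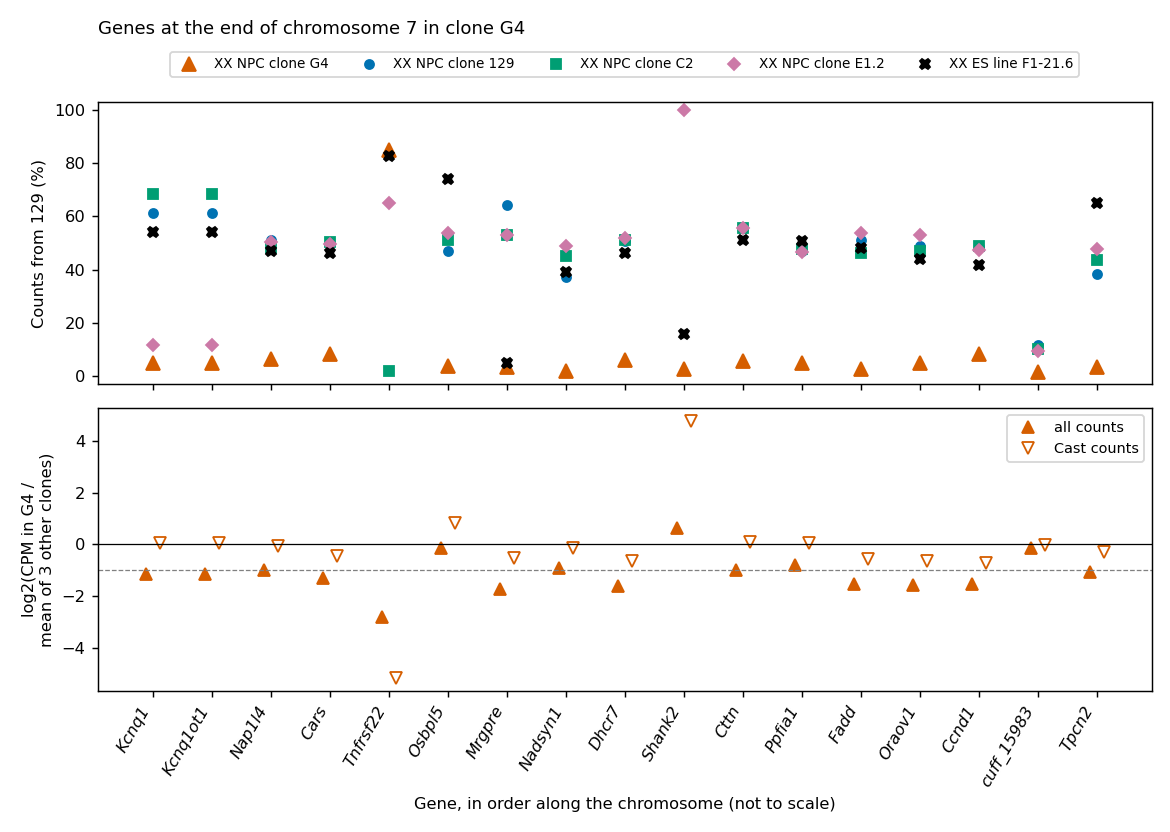
The 17 genes at the end of chromosome 7 in order, with the percent of counts from the 129 allele in the XX NPC clones and the XX ES library (upper panel, libraries with at least 20 counts) and the log2 ratio of the level in G4 to the mean of the 3 other clones, for all counts and Cast counts (lower panel, dashed line at -1). Clone G4 is at 1.69% to 8.51% 129 for 16 of the 17 genes.

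Listed imprinted genes were counted by their class in the 5 libraries. Of 56 listed imprinted autosomal genes in the table, 37 had at least 20 counts in all 5 libraries, and 18 of these were biallelic in all 5 and 12 monoallelic in at least 1. In the ES library 2 were monoallelic, Axl and Sfmbt2, and in clones 129, C2, G4 and E1.2 there were 4, 1, 8 and 3. Over all 10721 genes with such counts 5.89%, 3.12%, 3.68% and 2.98% were monoallelic in the clones, against 4.06% in ES. The share of all these genes that was monoallelic in at least 1 of the 5 was not counted. Of the 8 in G4, 5 lie in the distal chromosome 7 run that was Cast almost throughout (Kcnq1, Kcnq1ot1, Nap1l4, Osbpl5 and Dhcr7), which leaves 3 outside it. Airn, the antisense noncoding RNA of the Igf2r cluster, had 129 shares of 98.8%, 35.4%, 30.4% and 61.7% in the clones, against 63.6% of 66 counts in ES. Sgce, a sarcoglycan, had 93.8%, 43.8%, 7.88% and 42.9% in the clones, against 41.3% in ES. Clones 129 and G4 thus held opposite alleles of Sgce, while C2 and E1.2 held both. Ndn, encoding necdin, had 0.397%, 49.6%, 22.2% and 36.1% in the clones, against 45.6% in ES. Asb4, of a ubiquitin ligase complex, had 1.75%, 1.23%, 5.08% and 8.43% in the clones on 57 to 83 counts, against 49.6% of 135 counts in ES. By level, 12 of the 56 rose, 11 fell and 33 did not pass (median log2 change 0.57). H19, a noncoding RNA, had 0, 0, 0.0508 and 0.239 CPM in the clones and 96.7 in ES (log2 change -10.24 ± 1.53; edgeR adjusted p = 0.00105). Sgce rose, with 70.0, 145, 96.6 and 127 CPM in the clones and 10.7 in ES (log2 change 3.35 ± 0.43; edgeR adjusted p = 5.32e-04).

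The level of a gene that gained imbalance was followed by allele. With at least 200 counts in the ES library and in the clone, 207, 101, 135 and 117 gained genes could be followed in clones 129, C2, G4 and E1.2. Their median log2 ratio to the ES level was -0.70, -0.86, -0.48 and -0.63, against -0.01, -0.05, -0.05 and -0.09 for genes that stayed biallelic. The major allele had a median log2 ratio to its own ES level of 0.10, -0.05, 0.32 and 0.32, and the minor allele, with 0.1 CPM added, of -5.64, -4.88, -3.62 and -3.21. A comparison with clones that still used both alleles was possible for only part of these genes, from 63 in C2 to 181 in clone 129. For that part, the median log2 ratio to such clones was -0.86, -0.58, -0.76 and -0.83 in clones 129, C2, G4 and E1.2. In all 4 clones the median total was thus lower, mostly through the minor allele, and the median major allele was within 0.32 log2 units of its ES level. By gene, 69.6%, 71.3%, 66.7% and 61.5% of the gained genes were lower than in ES, and the rest were not. Among genes that stayed biallelic 50.3% to 53.0% were lower. The classes are defined by the minor allele's share, so its fall is a description and not a test.

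**Figure D5:**
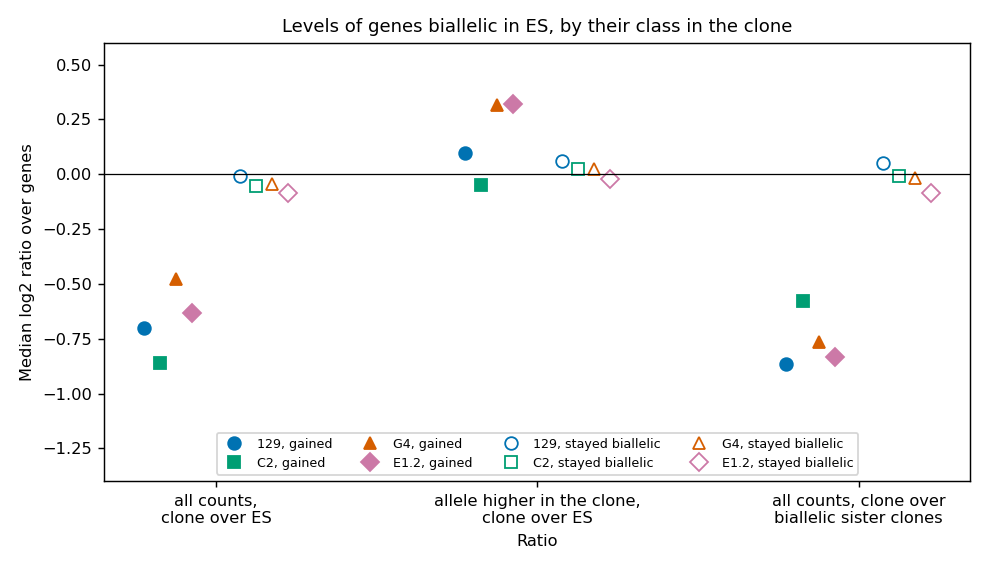
Median log2 ratio in each XX NPC clone of the total level to ES, of the allele higher in the clone to its ES level, and of the total level to sister clones that used both alleles. Filled symbols are genes that gained imbalance and open symbols genes that stayed biallelic, and the total of gained genes lies at -0.48 to -0.86 against -0.01 to -0.09.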

How the data were processed

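PolyA RNA was sequenced as paired 100-base reads, and the submitters' processing notes name TopHat 1.4.0, Cufflinks 1.3.0, SAMtools and mm9. The authors deposited 1 table with, per gene and library, a count of allele-informative observations, an FPKM value and a ratio giving the 129 share, which reads "nd" where undefined. How the authors counted is not given in the sources used here, so PCR copies may be included, and intervals cover counting error only. From the deposited counts and the 129 ratio, allele counts were recovered as whole numbers to within 0.0019.

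Expression was tested with edgeR 4.0.16 (R 4.3.3; quasi-likelihood test, TMM, filterByExpr, 1 mean per group) over all 10 libraries, with adjustment over all genes tested. The allele shift was tested with the 129 and Cast counts as 2 columns per library and the library as a block. Both fits were tested on simulated data. Alternatives used DESeq2 1.42.0, limma 3.58.1 on log2(FPKM + 1), other thresholds, thinned counts and left-out clones. Other tools were Python 3.11.15, pandas 2.3.3, numpy 2.4.6, scipy 1.17.1 and matplotlib 3.10.9.

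Named genes were the 10 largest changes each way among called single-symbol genes with at least 10 FPKM, the 3 largest each way per list, the gained genes with at least 200 counts in all 5 libraries ranked by clones and depth, the 3 deepest single-clone gains per clone, the 8 lost genes with most ES counts and the 5 largest shifts each way. The genes compared and the gene lists were chosen with earlier results of these data known. Clones count as replicates of the NPC state, and no label says that they were differentiated separately, so p-values measure the spread between these clones. The 2 remaining libraries of the series are not analysed here.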

Additional observations from a re-analysis of the deposited data

Results flagged for a closer look

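Among the 4 XX NPC clones, 24 values in 107 groups of 4 stood apart from the other 3 by more than Dixon's limit. Chance meets this rule in about 1 in 20 groups, and many genes were looked at. Clone 129 had the lowest percent of biallelic genes, 84.0%, and kept the ES allele in the highest percent of ES-monoallelic genes, 27.2%. Clone E1.2 had the highest level of the astrocyte genes Slc1a2 (1275 CPM) and Aqp4 (178 CPM) and the lowest of Fzd2 (6.65 CPM). Clone G4 had the highest level of Notch1 (513 CPM), of Cdh1 (0.569 CPM) and of Col1a1 (0.762 CPM). Nptx2 reached 0.0148 CPM in clone 129, and F2rl1 and Apobec3 reached 0.0813 and 0.254 CPM in G4, each with 0 in the other clones. These levels are close to 0. When the other 3 clones are all at 0, any value above 0 passes the limit, so these flags follow from the zeros.

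In 129 share, clone E1.2 stood apart for Abca8b (86.1%), Tmem40 (87.1%), Fpgt (51.9%), Zfp445 (88.6%) and Slc36a4 (11.3%), and clone 129 for Car5a (9.06%) and Ldha (0.0270%). Clone G4 stood apart for Mbd1 (0.123%) and for the distal chromosome 7 genes Ccnd1 (8.40%), Cttn (5.84%), Dhcr7 (6.04%), Nap1l4 (6.41%) and Osbpl5 (4.00%). Ldha, Mbd1, Zfp445, Slc36a4, Ccnd1 and Cttn were named because 1 clone alone was monoallelic, so their standing apart follows from that choice. Nap1l4, Dhcr7 and Osbpl5 were named as listed imprinted genes monoallelic in at least 1 library, a choice that also favours such values.

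The NPC change differed between the XX and the XY line by edgeR's interaction test for 12 genes, among them Nfia (at least 3.16 on the log2 scale, with 0 counts in XX ES set to a floor of 3 counts), Nav3 (4.67) and Fzd2 (4.64), and the shift in 129 share differed for 198 genes.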

How the results depend on the processing

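No paired analysis was possible because each ES group has 1 library and shares no more than 1 replicate number with its clones. The count of expression calls stayed within 1.5 times of 7363 under every alternative tried. It was 8197 with DESeq2, 7376 with DESeq2's size factors (3896 higher, 3480 lower), 6897 with limma on log2(FPKM + 1) (3364 higher, 3533 lower, against 4052 and 3311) and 5316 with the XX libraries alone. Leaving out 1 clone gave 6917 to 7720. Genes whose change differed between the lines numbered 503 with DESeq2, against 12, and 4 (without clone G4) to 25 (without clone 129) with a clone left out. The allele shift was called for 745 genes with the XX libraries alone, against 1640, and for 1387 to 1647 with a clone left out. The 872 gained genes became 511 with at least 100 counts, 271 with at least 500, 531 with a monoallelic limit of 0.95, 531 with a biallelic limit of 0.60 and 367 with an FPKM of at least 1. Leaving out a clone gave 624 (without clone 129) to 781. The 414 lost genes became 150, 48, 197 and 87 with at least 100 counts, at least 500 counts, a monoallelic limit of 0.95 and an FPKM of at least 1, and 380 to 397 with a clone left out. The monoallelic share difference of 1.33 points reversed to -0.142 over genes with 20 counts in all 5 libraries, and was 0.938 to 1.5 with a clone left out. Gapdh reversed to -0.55 with limma on FPKM. Stricter thresholds leave fewer genes that can be called, but the monoallelic share was also lower at 500 counts than at 20. Its clone mean was 2.77%, against 7.20%, and ES had 1.32%, against 5.87%. The cause of these moves was not tested. With the XX libraries alone 15 of 91 expression calls and 4 of 19 allele calls of single genes were lost, among them Slc1a2, Hepacam, Aqp4, Mt1, Zfp52, Nek3 and Sfmbt2. With limma on FPKM 8 expression calls were lost, among them Chl1, Slc1a2, Hepacam and Aqp4. The ES library is a single sample throughout, so its own error is not measured, and its depth, the lowest of the 5, limits the genes that can be called there.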

Other observations

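Allele shares are given for Tnc, Sox6, Vim and Cdkn2b, which were chosen after their values were seen. Tnc, the matrix protein tenascin C, had 129 shares of 59.8%, 60%, 63.2% and 71.4% in the XX NPC clones, against 99.0% of 1217 counts in XX ES (shift -5.82 ± 0.33 in log2 odds; edgeR adjusted p = 6.45e-05), and XY ES had 94.4%. Sox6, a factor of oligodendrocyte precursors, had 50.7%, 44.4%, 47.6% and 47.0% in the clones, against 15.0% of 100 counts in ES (shift 2.34 ± 0.29; edgeR adjusted p = 0.00198). XY ES had 59.1% for Sox6, and the shifts of the lines differed (edgeR interaction adjusted p = 0.0092). Vim, the intermediate filament vimentin, had 51.2%, 53.8%, 54.6% and 51.2% in the clones, against 73.5% in ES, and XY ES had 67.5%. Tnc and Vim thus leaned to 129 in both ES libraries, whereas Sox6 leaned to Cast in XX ES and to 129 in XY ES. Of all testable genes in XX ES 49.2% had a 129 share above 50%. The part of feeder RNA in these shares was not tested. For Cdkn2b, an inhibitor of cyclin D kinases, clone 129 had 6.12%, with 43.9%, 45.1% and 40.5% in C2, G4 and E1.2, against 39.5% in ES.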
